A study of Mus musculus with 30 samples.

Results

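The IL-12 receptor of T cells is built from 2 chains, encoded by Il12rb1 and Il12rb2, and each chain signals through a Janus kinase, TYK2 on the first and JAK2 on the second. These 4 genes were followed by their symbols, and all 4 were found among the 25865 gene symbols of the RNA table of naive and activated cells and among the 25860 symbols of the RNA table of forskolin-treated cells. Open chromatin was followed at the sites that overlap either receptor gene with 10 kb on both sides, which gave 16 sites at Il12rb2 and 10 at Il12rb1 of 110808 sites in all.

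IL-12 is a dimer that dendritic cells and macrophages release, and it directs CD4 T cells towards the Th1 fate. The chain from Il12rb1 is shared with the IL-23 receptor. The chain from Il12rb2 carries the docking site for STAT4, the transcription factor that drives interferon gamma. Resting naive CD4 T cells hold little of the second chain, and engagement of the T cell receptor, interferon gamma and IL-12 itself raise it.

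The question of the series is what protein kinase A (PKA, activated by cyclic AMP) and the transcription factor CREB do for the IL-12 response of mouse CD4 T cells. Cells came from spleen and lymph nodes of control animals (WT) and of animals labelled PKAKO (KO), and had been purified as naive cells with a CD4 kit and by sorting. RNA-seq covered cells taken without stimulation (naive), cells stimulated through CD3 and CD28 for 3 days (activated) and cells kept in IL-7 for 3 days and given forskolin, which raises cyclic AMP, at 1 ug/mL for 4 h (forskolin). ATAC-seq, which counts fragments from open chromatin, covered the naive and activated states. There were 3 libraries in each group, 18 for RNA and 12 for ATAC. The labels used here give neither the PKA gene, the allele or Cre driver, the age of the animals, nor how many animals stand behind a group. The p-values therefore reflect the spread from library to library, which may be technical. Rested cells without forskolin were not analysed here, so the forskolin libraries give a genotype difference and no forskolin effect.

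RNA libraries held 7665955 to 11968094 counts and ATAC libraries 18522373 to 25318916 counts in sites. Prkaca, the gene of a catalytic PKA subunit, lay between 32.1 and 53.3 CPM (counts scaled to a common library total, with TMM factors) in the 9 WT libraries and between 0.867 and 3.88 CPM in the 9 KO libraries. All 8 T cell markers of a fixed list were detected in every group, with a summed level of 2099.9 to 5616 CPM. After forskolin that sum was 3591 to 3652 CPM in WT and 2997 to 3080.2 CPM in KO. Of the 8, 6 passed as lower and 1 as higher in KO there, against 18.8% and 19.7% of all genes. In activated KO cells 2 of the 8, Trac and Cd28, passed as lower and 0 as higher, against 9.04% and 5.89% of all genes. The 8 natural killer (NK) cell markers, of interest because NK cells carry the IL-12 receptor, summed to 200.2 to 233 CPM in activated WT and 161 to 208 CPM in activated KO. In naive cells they summed to 4.90 to 8.33 CPM in WT and 7.96 to 12.7 CPM in KO. Ncr1, Klra8, Klra4 and Klre1 among them were at 0 in both activated groups. In the naive and activated libraries 2 of the 8, Nkg7 and Eomes, were high enough to test. Both passed as higher on activation in WT and in KO, where 82.6% and 82.1% of all genes passed in either direction. CD8 T cell markers summed to 5.20 to 28.7 CPM and gamma delta T cell markers to 0.449 to 14 CPM. Markers of B cells, myeloid cells, dendritic cells and erythroid cells summed to at most 16 CPM in any library. B cell markers summed to 1.47 to 2.91 CPM in activated WT and 5.16 to 8.15 CPM in activated KO, without overlap, and Cd79b, a B cell receptor gene, passed as higher there (1.16 ± 0.32, edgeR adjusted p = 0.0206). The part of these markers in the results was not tested.

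Il12rb2, the signalling chain, was the member whose RNA differed most between genotypes in activated cells. It rose steeply on activation in WT cells and much less in KO cells. It was also lower in KO after forskolin, where Il12rb1 was higher in KO, with few counts in WT. In activated WT cells the 3 libraries held 111, 59.4 and 62.9 CPM, and in activated KO cells 5.44, 5.16 and 5.28 CPM. Every WT library lay far above every KO library, and 38.6% of all genes had groups without overlap there. The first WT library stood apart from the other 2. In naive cells the levels were 1.19, 1.02 and 1.59 CPM in WT and 1.15, 0.443 and 1.04 CPM in KO, from 4 to 12 counts per library, and the groups overlapped. After forskolin they were 10.4, 12.6 and 10.4 CPM in WT and 2.53, 3.07 and 2.16 CPM in KO, with every KO library below every WT library.

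The order of the mean levels of Il12rb2 was activated WT (77.9 ± 29.0 CPM, SD, n = 3), forskolin WT (11.1 ± 1.25), activated KO (5.29 ± 0.136), forskolin KO (2.59 ± 0.455), naive WT (1.27 ± 0.296) and naive KO (0.878 ± 0.381). The forskolin libraries were scaled in a table of their own, so their places in this order were not tested. Neighbours in the order overlapped only between naive WT and naive KO.

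With edgeR's quasi-likelihood test and Benjamini-Hochberg adjustment over all genes, Il12rb2 was 14.7-fold lower in activated KO than in activated WT cells (log2 fold change -3.88 ± 0.24, SE, adjusted p = 2.5e-07). In this comparison 14.9% of 11980 tested genes passed the test, 9.04% lower and 5.89% higher (1083 and 706 genes, or 843 and 987 with upper-quartile scaling). Of the 4 members, Il12rb2 was the single gene that passed. After forskolin it was 4.30-fold lower in KO (-2.10 ± 0.19, adjusted p = 3.97e-10), where 38.5% of 11658 tested genes passed, 18.8% lower and 19.7% higher, and 48.6% had groups without overlap. In naive cells the difference was -0.50 ± 0.59 (adjusted p = 1), with a 95% interval from -1.77 to 0.78. No member passed there with edgeR or limma-voom, 1 (Il12rb1) had an unadjusted p under 0.05 and passed with DESeq2, and 0.242% of genes passed. In bulk RNA, fewer cells with the transcript and less transcript per cell cannot be told apart.

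Activation raised Il12rb2 62.4-fold in WT (log2 5.96 ± 0.31, adjusted p = 7.44e-10) and 6.0-fold in KO (2.58 ± 0.43, adjusted p = 9.4e-05). In these comparisons 82.6% and 82.1% of genes passed. The difference between them, which is the change of the genotype difference with activation, was -3.38 ± 0.71 (adjusted p = 0.0177 by edgeR's quasi-likelihood test), and 3.70% of genes passed. This call rests on the few counts of the naive libraries. The adjusted p lay between 0.0581 and 0.136 without naive WT replicate 1, 2 or 3 or naive KO replicate 1 or 3, and was 0.0752 without the filter on low counts and 0.0775 with limma-voom. The value itself stayed between -3.70 and -3.03 over all 18 alternatives.

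**Figure D1:**
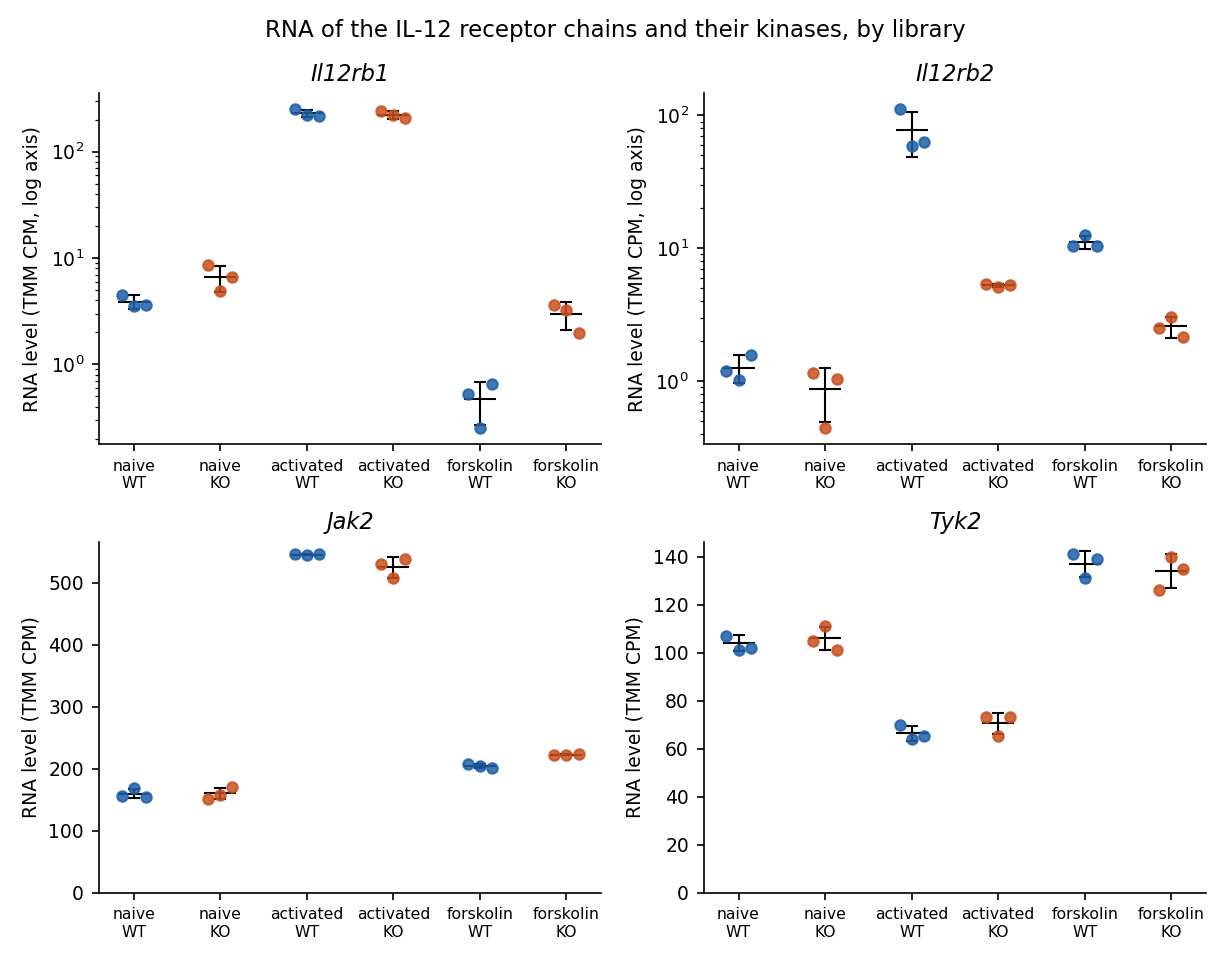
RNA level of the 4 members in each library, in TMM-scaled CPM (log axis for Il12rb1 and Il12rb2, linear axis from 0 for Jak2 and Tyk2). Points are libraries, WT in blue and KO in orange, and the bars give the mean and SD of 3 libraries. Il12rb2 stands at 59.4 to 111 CPM in activated WT and at 5.16 to 5.44 CPM in activated KO, while Il12rb1 overlaps between the genotypes there.

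The gene Il12rb2 spans chr6:67285986-67376293 (mm10, RefSeq of GRCm38.p6) and is read from the minus strand. Its far end overlaps the end of Serbp1, an RNA-binding protein gene, between 67285986 and 67289302, and whether the authors counted by strand is not given in the sources used here. Serbp1 stood at 1438 ± 14.3 CPM in activated WT and 1479 ± 36.0 CPM in activated KO (SD, n = 3), with a log2 fold change of 0.04 ± 0.07 (edgeR adjusted p = 0.758).

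The sequence just above the gene is shown because an ATAC site that changed with genotype, described further on, covers it. It is the part of the RefSeq promoter window that lies outside the gene span, 145 bases at chr6:67376294-67376438 of GRCm38.p6, printed from the minus strand in the reading direction of the gene. Capitals mark, in order, TGACG on the reverse strand, which is the core of the cyclic AMP response element that CREB binds, and TTCNNNGAA, the palindrome that STAT factors bind.

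Il12rb2: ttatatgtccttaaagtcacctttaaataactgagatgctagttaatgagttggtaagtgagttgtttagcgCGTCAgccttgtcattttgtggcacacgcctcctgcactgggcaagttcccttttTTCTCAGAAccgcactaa

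The first match covers the bases 178 to 174 before the start site in the table, at 67376188, and the second the bases 123 to 115 before it. Both strands of windows of 300 bases were searched, and 20.8% of the 32851 promoters held TGACG and 8.30% held TTCNNNGAA. The whole element TGACGTCA, which contains TGACG, was absent from the Il12rb2 window and is held by 1.79% of promoters. The AP-1 motif TGANTCA and the T-box motif GGTGTGA had no match there either. The same held for the RUNX motif TGTGGT, for the NFAT motif GGAAAA and for AGATAA, which GATA factors bind. These are matches of letters, which do not show binding. The promoter of Jak2 held none of the 8 motifs, and that of Tyk2 held GGAAAA once, on the reverse strand, a motif in 23.4% of promoters.

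Il12rb1, the chain shared with the IL-23 receptor, followed another course. Its RNA rose on activation to overlapping ranges in both genotypes, and it was higher in KO than in WT after forskolin. The activated libraries held 249, 220.2 and 218 CPM in WT and 242, 221 and 206 CPM in KO, and the groups overlapped. In naive cells the levels were 4.54, 3.51 and 3.59 CPM in WT and 8.54, 4.88 and 6.57 CPM in KO, so that every KO library lay above every WT library. After forskolin they were 0.525, 0.251 and 0.650 CPM in WT, from 4, 2 and 6 counts, and 3.62, 3.28 and 1.98 CPM in KO, from 43, 31 and 22 counts, again without overlap.

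In activated cells the log2 fold change of Il12rb1, KO over WT, was -0.04 ± 0.09 (edgeR adjusted p = 0.837), with a 95% interval from -0.24 to 0.16. In naive cells it was 0.77 ± 0.20 (1.71-fold higher in KO), which missed the threshold in edgeR's quasi-likelihood test (adjusted p = 0.218) and passed with DESeq2 (0.78, adjusted p = 0.0286) and without naive KO replicate 2, the lowest of the 3 (0.95, edgeR adjusted p = 0.0453). Groups without overlap were found for 8.34% of genes in naive cells. After forskolin Il12rb1 was 6.0-fold higher in KO (2.58 ± 0.41, edgeR adjusted p = 6.75e-06). It entered that test through the counts of its KO libraries, and its level in WT rests on 2 to 6 counts per library.

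Activation raised Il12rb1 58.9-fold in WT (5.88 ± 0.14, edgeR adjusted p = 3.43e-16) and 33.5-fold in KO (5.07 ± 0.13, edgeR adjusted p = 1.01e-15). The difference between these rises was -0.81 ± 0.22 (edgeR adjusted p = 0.0502), just outside the threshold, and it passed under 6 of 18 alternatives, with adjusted p from 0.00795 to 0.177 over all of them. By mean level the order was activated WT (229 ± 17.3 CPM, SD, n = 3), activated KO (223 ± 18.4), naive KO (6.66 ± 1.83), naive WT (3.88 ± 0.574), forskolin KO (2.96 ± 0.866) and forskolin WT (0.475 ± 0.204). Activated WT and KO overlapped, as did naive WT and forskolin KO, and the forskolin libraries were again scaled separately.

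A joint fit of all 18 libraries, chosen after the data were seen, compared the genotype difference between conditions. For Il12rb1 the difference after forskolin exceeded that in activated cells by 2.65 ± 0.42 (edgeR adjusted p = 8.55e-05) and that in naive cells by 1.84 ± 0.49 (edgeR adjusted p = 0.0157). For Il12rb2 the difference after forskolin was smaller than that in activated cells, by 1.81 ± 0.38 (edgeR adjusted p = 0.00244). Against naive cells the value for Il12rb2 was -1.58 ± 0.64 (edgeR adjusted p = 0.141), with a 95% interval from -2.93 to -0.23 before adjustment. In this fit 18.1% of 12607 genes passed in the contrast with activated cells (734 lower, 1548 higher) and 10.9% in the contrast with naive cells (482 lower, 894 higher). The member calls were all in the higher direction. For forskolin KO against WT this fit called 1102 genes lower and 1932 higher, against 2190 and 2294 in the forskolin fit alone.

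**Figure D2:**
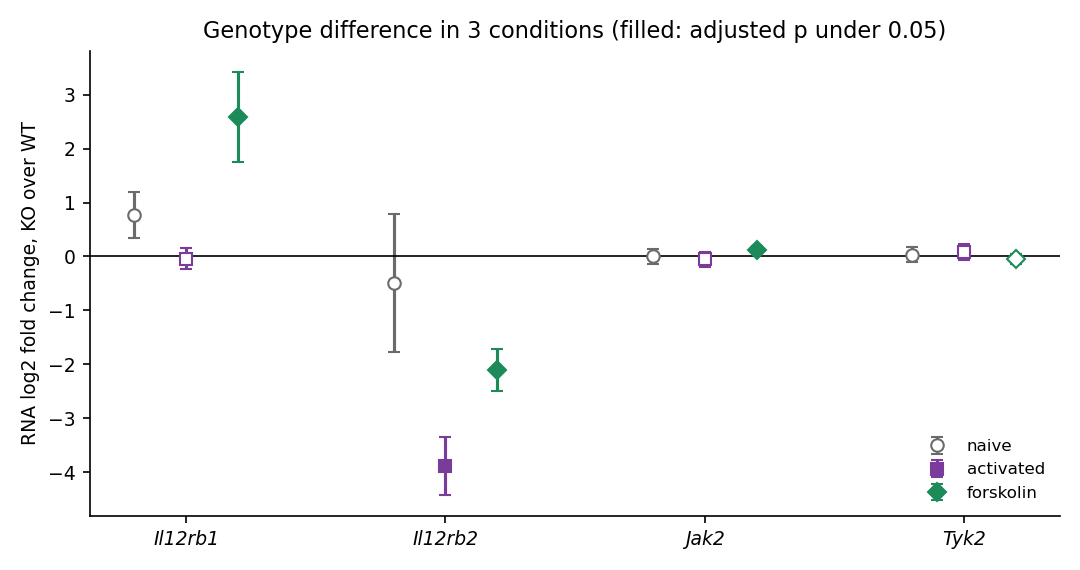
Log2 fold change of RNA, KO over WT, for each member in naive, activated and forskolin-treated cells, with 95% intervals. Filled symbols passed the test at an adjusted p of 0.05. Il12rb2 lies at -3.88 in activated cells and -2.10 after forskolin, Il12rb1 at 2.58 after forskolin, and Jak2 and Tyk2 lie close to 0 in all 3 conditions.

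The kinases differed little between the genotypes. Jak2, the kinase bound to the second chain, held 156, 169 and 155 CPM in naive WT and 152, 158 and 171 CPM in naive KO, with overlap. In activated cells it held 546, 545 and 546 CPM in WT and 531, 507 and 538 CPM in KO. The activated KO libraries all lay below the WT libraries, which was so or the opposite for 38.6% of genes, and the difference of -0.05 ± 0.06 did not pass (edgeR adjusted p = 0.631, 95% interval from -0.19 to 0.08).

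After forskolin Jak2 held 207, 205 and 201 CPM in WT and 223, 222 and 224 CPM in KO, with every KO library higher. The difference was 1.09-fold (0.12 ± 0.03, edgeR adjusted p = 0.00358), and in the joint fit of 18 libraries it was 0.16 with an adjusted p of 0.0543. Activation raised Jak2 3.40-fold in WT (1.77 ± 0.07, edgeR adjusted p = 4.39e-14) and 3.28-fold in KO (1.71 ± 0.07, edgeR adjusted p = 7.12e-14). The change of the genotype difference with activation was -0.06 ± 0.09 (edgeR adjusted p = 0.845), with a 95% interval from -0.25 to 0.14.

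Tyk2, the kinase bound to the first chain, fell on activation in both genotypes. It held 107, 101 and 102 CPM in naive WT, 105, 111 and 101 CPM in naive KO, 69.7, 64.1 and 65.3 CPM in activated WT and 73.1, 65.4 and 73.2 CPM in activated KO. The genotypes overlapped in both states, and the states did not, as for 82.8% of genes in WT and 84.6% in KO. The fall was 1.56-fold in WT (-0.64 ± 0.07, edgeR adjusted p = 1.3e-07) and 1.5-fold in KO (-0.58 ± 0.07, edgeR adjusted p = 4.38e-07). KO and WT differed by 0.09 ± 0.07 in activated cells (95% interval from -0.06 to 0.23) and by -0.04 ± 0.04 after forskolin (from -0.13 to 0.05), where the levels were 141, 131 and 139 CPM in WT and 126, 140.0 and 135 CPM in KO. Neither difference passed edgeR's test (adjusted p = 0.456 and 0.543).

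Among the ligand subunits, Il12b, the subunit that IL-12 and IL-23 share, had 1 count in 1 of 18 libraries, and Il12a, the subunit of IL-12 alone, had at most 5 counts in any library. Ebi3, a subunit of IL-27 and IL-35, reached 7.49 ± 1.92 CPM in activated WT and 6.49 ± 1.15 CPM in activated KO (SD, n = 3; edgeR adjusted p = 0.615). Of the partner chains, Il23r, which pairs with the Il12rb1 product, had 4, 1 and 0 counts in activated WT and 0 in the activated KO libraries, and was too low to test. Il27ra, a chain of the IL-27 receptor, was higher in KO in activated cells (0.48 ± 0.07, edgeR adjusted p = 0.000229) and after forskolin (0.27 ± 0.04, edgeR adjusted p = 1.41e-06).

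Stat4, the factor that IL-12 activates, was lower in KO than in WT, as Il12rb2 was, in activated cells and after forskolin. It held 255, 235 and 272 CPM in activated WT and 48.2, 45.0 and 50.3 CPM in activated KO, without overlap and 5.31-fold lower (-2.41 ± 0.08, edgeR adjusted p = 1.2e-12). After forskolin it was 3.63-fold lower in KO (-1.86 ± 0.06, edgeR adjusted p = 2.72e-21). On activation it rose in WT (1.09 ± 0.08, edgeR adjusted p = 4e-10) and fell in KO (-1.14 ± 0.08, edgeR adjusted p = 4.73e-10), where Il12rb2 rose. Stat3, which cytokines such as IL-6 activate, was 2.16-fold lower in activated KO (-1.11 ± 0.08, edgeR adjusted p = 2.19e-08). Of the other Janus kinases, Jak1 was 1.20-fold lower in activated KO (-0.26 ± 0.06, edgeR adjusted p = 0.00953), and Jak3 did not pass (-0.10 ± 0.14, edgeR adjusted p = 0.695).

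Of 18 tested genes on a fixed list of genes that IL-12 can induce, 9 passed as lower and 4 as higher in activated KO cells. The shares over all genes were 9.04% and 5.89%, and the median was -0.37 against 0.01 over all genes. Map3k8, a kinase gene, was lower (-1.36 ± 0.15, edgeR adjusted p = 1.42e-05), as was Gadd45b, a stress-response gene (-0.91 ± 0.13, edgeR adjusted p = 0.000111). Serpina3g, a protease inhibitor gene, was higher (1.58 ± 0.11, edgeR adjusted p = 1.39e-08), as was Il18r1, an IL-18 receptor gene (1.41 ± 0.14, edgeR adjusted p = 2.16e-06). Ifng, which encodes interferon gamma, held 30.1, 14.7 and 17.0 CPM in activated WT and 10, 6.82 and 7.78 CPM in activated KO, with the same WT library highest as for Il12rb2 (2.50-fold lower in KO, -1.32 ± 0.29, edgeR adjusted p = 0.0158). After forskolin 14 genes of this list were tested, and 6 passed as lower and 6 as higher, against 18.8% and 19.7% of all genes.

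Of 19 tested genes on a fixed list of possible regulators of Il12rb2, 6 passed as lower and 4 as higher in activated KO cells. The shares over all genes were 9.04% and 5.89%, and the median was 0.03 against 0.01 over all genes. Whether these genes act on Il12rb2 in these cells was not tested. Zeb2, a zinc finger repressor, and Runx3, a factor of Th1 and CD8 T cells, were lower (-1.21 ± 0.14, edgeR adjusted p = 8.03e-06, and -1.20 ± 0.15, edgeR adjusted p = 0.00017). Irf2, an interferon regulatory factor, was higher (0.41 ± 0.08, edgeR adjusted p = 0.00133). Tbx21, which encodes T-bet, the defining factor of Th1 cells, held 116, 127 and 127 CPM in activated WT and 126, 139 and 138 CPM in activated KO, with overlap (0.13 ± 0.08, edgeR adjusted p = 0.298).

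Over the 12 naive and activated libraries, the genes whose log2 CPM followed Il12rb2 most closely by Pearson's r, among 11980 tested genes, were Cep170 (r = 0.9954), Vma21 (0.9889), Gzmb (0.9867), Cacna1s (0.9864) and Fem1b (0.9858). Gzmb, which encodes granzyme B, stood at 547 CPM in activated WT and 7.0 CPM in activated KO. For Il12rb1 the closest were Kntc1 (0.9984), Tube1 (0.9979) and Mtx1 (0.9978), for Jak2 they were Cdc6 (0.9992), Il2ra (0.9989) and Tacc3 (0.9987), and for Tyk2 they were Tmem268 (0.9928), Lair1 (0.9919) and Jrkl (0.9917). These libraries share the step from naive to activated cells, which moved most genes, so the values describe a pattern and carry no test.

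Open chromatin at Il12rb2 was lower in KO than in WT at most sites in activated cells and at none by the test in naive cells. Of the 16 sites, 10 passed edgeR's quasi-likelihood test on the deposited counts as lower in activated KO and 1 as higher, against 28.4% of 110797 sites over the genome, 17.5% lower and 10.9% higher. The median log2 fold change over the 16 sites was -0.64, against 0.02 over all sites. In naive cells none of the 16 passed with edgeR or with DESeq2, the smallest edgeR adjusted p being 0.0952, against 1.54% of all sites, and 2 had an unadjusted p under 0.05. Their median was 0.07, as over all sites. The authors' deposited table calls fewer sites, 5.16% in activated cells and 0.0171% in naive cells at an FDR of 0.05, and has 2 of the 16 below that FDR in activated cells, both lower in KO.

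The 4 sites nearest the start of Il12rb2 included the 3 with the deepest loss. The site chr6:67376047-67376447 covers the start site and the sequence printed above. It held 11, 12.6 and 11.4 CPM in naive WT, 9.03, 11 and 10.4 CPM in naive KO, 18.4, 13.5 and 13.6 CPM in activated WT and 8.60, 7.2 and 7.66 CPM in activated KO. It was thus open before activation in both genotypes, and after activation every KO library lay below every WT library. Over the genome, groups did not overlap at 46.0% of sites in activated cells. The genotype difference was -0.20 ± 0.13 in naive cells (edgeR adjusted p = 0.615) and -0.96 ± 0.12 in activated cells (edgeR adjusted p = 3.28e-06), and the change between them was -0.76 ± 0.18 (edgeR adjusted p = 0.012). That change did not pass without activated KO replicate 2 (-0.65, adjusted p = 0.0736) or 3 (-0.69, adjusted p = 0.0595). In the authors' deposited table this site has an FDR of 0.352 in activated cells.

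The other 3 of these sites were nearly closed in naive cells. At chr6:67367114-67367514, 8.9 kb into the gene, naive WT held 1.20, 1.13 and 1.70 CPM and naive KO 1.03, 1.10 and 1.41 CPM, with overlap, and activated WT held 19.3, 17.4 and 14.2 CPM and activated KO 6.23, 6.21 and 5.48 CPM, without overlap. The site was 2.85-fold lower in activated KO (-1.51 ± 0.12, edgeR adjusted p = 9.06e-09), with an FDR of 0.0178 in the authors' deposited table. Activation opened it 12.9-fold in WT (3.69 ± 0.16), against a log2 change of 2.32 ± 0.19 in KO. The change of the genotype difference with activation was -1.37 ± 0.29 (edgeR adjusted p = 0.00577), or -1.21 with an adjusted p of 0.0503 without naive KO replicate 3.

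At chr6:67373650-67374050, 2.3 kb into the gene, activated WT held 9.60, 5.09 and 4.96 CPM and activated KO 2.30, 1.31 and 1.39 CPM, while the naive libraries held 0.104 to 0.541 CPM. Here too the first activated WT library was the highest. The site was 3.93-fold lower in activated KO (-1.97 ± 0.28, edgeR adjusted p = 3.61e-05; FDR of 0.0401 in the authors' deposited table). At chr6:67378015-67378415, 2.0 kb before the start, activated WT held 7.08, 4.24 and 4.62 CPM and activated KO 2.11, 1.42 and 1.39 CPM, a 3.23-fold difference (-1.69 ± 0.26, edgeR adjusted p = 4.95e-05), with an FDR of 0.198 in the authors' deposited table. The first activated ATAC library of WT stood highest at all 4 sites. By level summed over sites it also stood highest at Il12rb1 (123, 117 and 115 CPM), Jak2 (212, 199.7 and 196 CPM) and Tyk2 (147, 134 and 132 CPM). Whether it shares cells with the first activated RNA library is not given in the sources used here.

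**Figure D3:**
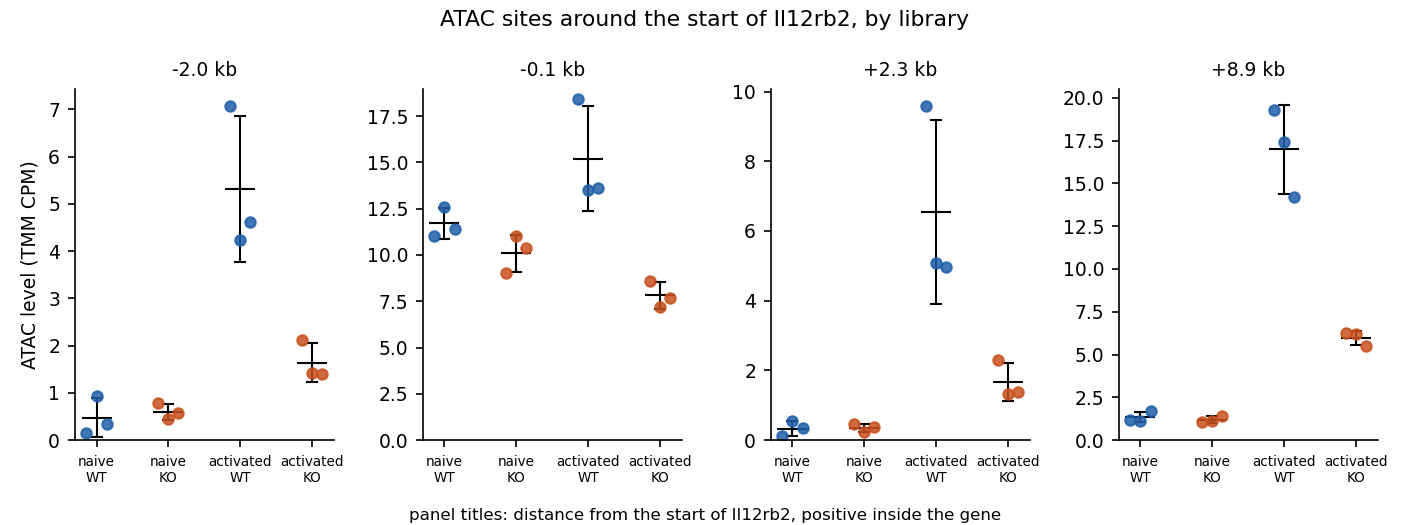
ATAC level, in TMM-scaled CPM on linear axes from 0, at the 4 sites around the start of Il12rb2 in each library. Points are libraries, WT in blue and KO in orange, with the mean and SD of 3 libraries. In activated cells the KO libraries lie below the WT libraries in all 4 panels, and 46.0% of all sites had groups without overlap there. The site at the start is already open in naive cells, at 9.03 to 12.6 CPM.

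Further into the gene the differences lay between -1.07 and 0.52 and went both ways. Lower in activated KO were the sites that start at 67302253 (-1.07 ± 0.17, edgeR adjusted p = 4.6e-05), 67341457 (-0.93 ± 0.26, edgeR adjusted p = 0.00909), 67339463 (-0.65 ± 0.19, edgeR adjusted p = 0.0126), 67292024 (-0.63 ± 0.12, edgeR adjusted p = 0.00052) and 67348000 (-0.37 ± 0.09, edgeR adjusted p = 0.00643). The first of these, 73.7 kb into the gene, held 5.90, 7.22 and 5.86 CPM in naive WT and 4.00, 4.91 and 4.17 CPM in naive KO, and 4.52, 3.56 and 3.83 CPM in activated WT and 1.78, 2.33 and 1.58 CPM in activated KO. KO libraries were lower in both states, where 14.3% (naive) and 46.0% (activated) of all sites had groups without overlap. The naive difference of -0.54 ± 0.16 did not pass (edgeR adjusted p = 0.0952). It passed at -0.53 with a replicate block (adjusted p = 0.0498), at -0.59 in a fit of the naive libraries alone (adjusted p = 0.0476) and at -0.61 without activated WT replicate 1 (adjusted p = 0.025).

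The site that starts at 67334871, 41.1 kb into the gene, was higher in KO, with 6.55, 5.94 and 4.81 CPM in activated WT and 8.82, 8.51 and 7.51 CPM in activated KO (0.52 ± 0.14, edgeR adjusted p = 0.00952). These groups did not overlap, and the call was lost without activated WT replicate 3 (0.39, edgeR adjusted p = 0.0594). The call at 67341457 was lost without activated WT replicate 1 (-0.68, edgeR adjusted p = 0.0585) and that at 67348000 in a fit of the activated libraries alone (-0.36, edgeR adjusted p = 0.0738).

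Beyond the end of Il12rb2, within the span of Serbp1, the site that starts at 67282893 was lower in activated KO (-0.92 ± 0.26, edgeR adjusted p = 0.0105, or -0.84 with an adjusted p of 0.0556 without activated KO replicate 3). The sites that start at 67278075, 67294915, 67296148, 67317865 and 67342445 did not pass, with log2 fold changes from -0.50 to 0.18. At the last of these, 0 to 0.0522 CPM in naive WT and 2.06, 2.68 and 2.25 CPM in activated WT stood beside 2.0, 1.5 and 1.43 CPM in activated KO, and every KO library was lower (edgeR adjusted p = 0.0827). It passed without activated WT replicate 1 (-0.59, edgeR adjusted p = 0.0487) or activated KO replicate 1 (-0.68, edgeR adjusted p = 0.0491). Which of these sites lie in exons or introns is not stated, because the annotation used here gave gene spans.

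**Figure D4:**
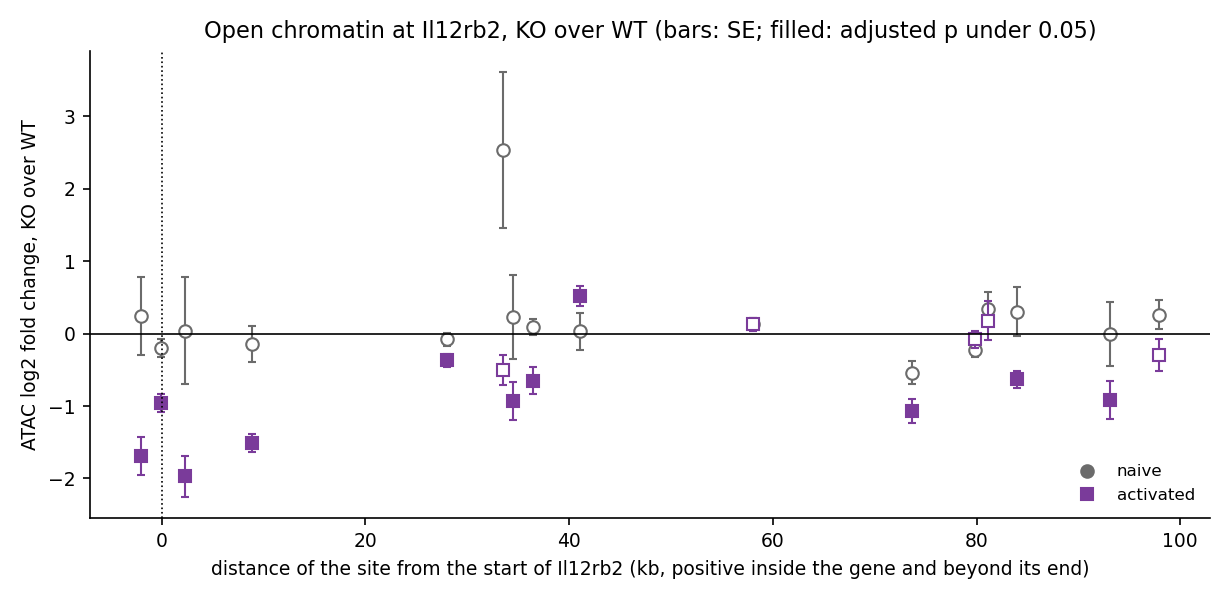
Log2 fold change of ATAC counts, KO over WT, with SE, at the 16 sites of Il12rb2 against their distance from its start in kb, in naive and activated cells. Filled symbols passed the test at an adjusted p of 0.05. The activated values lie between -1.97 and -0.96 at the 4 sites around the start and between -1.07 and 0.52 elsewhere, and no naive value is filled. The naive value of 2.53 comes from a site with at most 0.221 CPM in naive cells.

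With TMM scaling all 16 sites passed the test of activation in both genotypes, against 89.9% of sites over the genome in WT and 88.5% in KO. In WT 9 sites rose and 7 fell, against 51.4% and 38.5% of all sites, and in KO 8 rose and 8 fell, against 49.7% and 38.8%. These comparisons share their libraries with those between genotypes, so the levels are given side by side. The site at the start of Il12rb2 rose by 0.38 ± 0.12 in WT (edgeR adjusted p = 0.00542) and was lower by 0.38 ± 0.13 on the log2 scale in activated than in naive KO cells (edgeR adjusted p = 0.00941). The WT rise was lost without activated WT replicate 1 (0.16, adjusted p = 0.173). The KO value was lost without activated KO replicate 2 (-0.31, adjusted p = 0.0547) and turned to 0.22 under total-count scaling (adjusted p = 0.103). Over all sites the median activation change was 0.54 in WT and 0.44 in KO with TMM, and 1.09 and 1.04 with total counts. With TMM 42.8% of the WT calls and 43.8% of the KO calls were lower, and with total counts 32.7% and 31.7%. The site that starts at 67348000, the tallest of the gene, with 50.7 to 58.6 CPM in naive WT and 35.0 to 45.9 CPM in activated WT, fell by 0.49 with TMM (edgeR adjusted p = 7.7e-05) and stood at 0.07 with total counts (adjusted p = 0.37). Total counts also ended the WT calls at 67278075 (-0.31, adjusted p = 0.177) and 67302253 (-0.12, adjusted p = 0.456), and in KO those at 67296148 (-0.24, adjusted p = 0.0708) and 67348000 (-0.17, adjusted p = 0.0562). The site that starts at 67339463 fell from 23.4 to 29.1 CPM in naive WT to 2.31 to 2.78 CPM in activated WT, and from 22.8 to 30.7 CPM to 1.41 to 1.82 CPM in KO.

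Summed over the 16 sites, the level was 139 ± 7.17 CPM in naive WT, 136 ± 8.07 CPM in naive KO, 130.5 ± 19.3 CPM in activated WT and 87.8 ± 6.34 CPM in activated KO (SD, n = 3). The activated WT libraries summed to 153, 122 and 117 CPM and the activated KO libraries to 94.7, 86.4 and 82.3 CPM, without overlap.

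At Il12rb1, which spans chr8:70808360-70823542, few sites differed between genotypes. In activated cells 2 of 10 sites passed as lower in KO and none as higher by edgeR's quasi-likelihood test, where 17.5% of all sites passed as lower and 10.9% as higher, with a median of -0.03 against 0.02 over all sites, and the authors' deposited table has none of the 10 below an FDR of 0.05. In naive cells none passed with edgeR or with DESeq2, and 3 had an unadjusted p under 0.05, with a median of 0.16 against 0.07. The summed level was 114 ± 5.34 CPM in naive WT, 120.4 ± 3.58 CPM in naive KO, 118 ± 4.48 CPM in activated WT and 113 ± 3.20 CPM in activated KO, and the genotypes overlapped in both states.

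The sites that passed were chr8:70806560-70806960, 1.6 kb below the gene span, and chr8:70811274-70811674, inside it. The former held 35.1, 33.8 and 33.4 CPM in activated WT and 29.7, 28.0 and 27.4 CPM in activated KO, without overlap (1.20-fold lower, -0.27 ± 0.07, edgeR adjusted p = 0.00419). The latter held 3.99, 3.19 and 3.38 CPM in activated WT and 1.78, 2.61 and 2.25 CPM in activated KO, also without overlap (1.59-fold lower, -0.67 ± 0.18, edgeR adjusted p = 0.00611). The genotype difference changed with activation by -0.47 ± 0.10 at the former (edgeR adjusted p = 0.00842) and by -0.79 ± 0.21 at the latter (edgeR adjusted p = 0.0304), where 5.58% of all sites passed. Without activated KO replicate 3 neither passed (-0.40, adjusted p = 0.0652, and -0.76, adjusted p = 0.0686), and without activated KO replicate 2 the former did not (-0.41, adjusted p = 0.0584). The latter was lost without 6 other libraries in turn (adjusted p from 0.0638 to 0.108).

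The site at the lower end of the gene span, chr8:70808209-70808609, held 9.19, 7.91 and 8.32 CPM in naive WT, 10.7, 9.77 and 11.1 CPM in naive KO, 25.7, 24.4 and 23.3 CPM in activated WT and 26.5, 26.5 and 26.6 CPM in activated KO. KO libraries were higher in both states, by 0.31 ± 0.09 in naive cells (edgeR adjusted p = 0.111) and by 0.12 ± 0.07 in activated cells (edgeR adjusted p = 0.238), and neither passed. Groups without overlap were found at 14.3% of sites in naive cells and 46.0% in activated cells. On activation 6 of the 10 sites rose and 4 fell in WT, where 51.4% of all sites rose and 38.5% fell. In KO 6 rose and 3 fell, where 49.7% of all sites rose and 38.8% fell. The site that starts at 70816606, 8.4 kb inside the span, opened 19.0-fold in WT, from 0.0682 to 0.365 CPM to 4.77 to 5.36 CPM, and reached 3.87 to 4.95 CPM in KO. The site that starts at 70821535 fell by 0.27 in WT with TMM and stood at 0.29 with total-count scaling (edgeR adjusted p = 0.0137 and 0.0119). In KO this site stood at 0.01 with TMM and at 0.61 with total-count scaling (edgeR adjusted p = 0.926 and 7.88e-06).

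**Figure D5:**
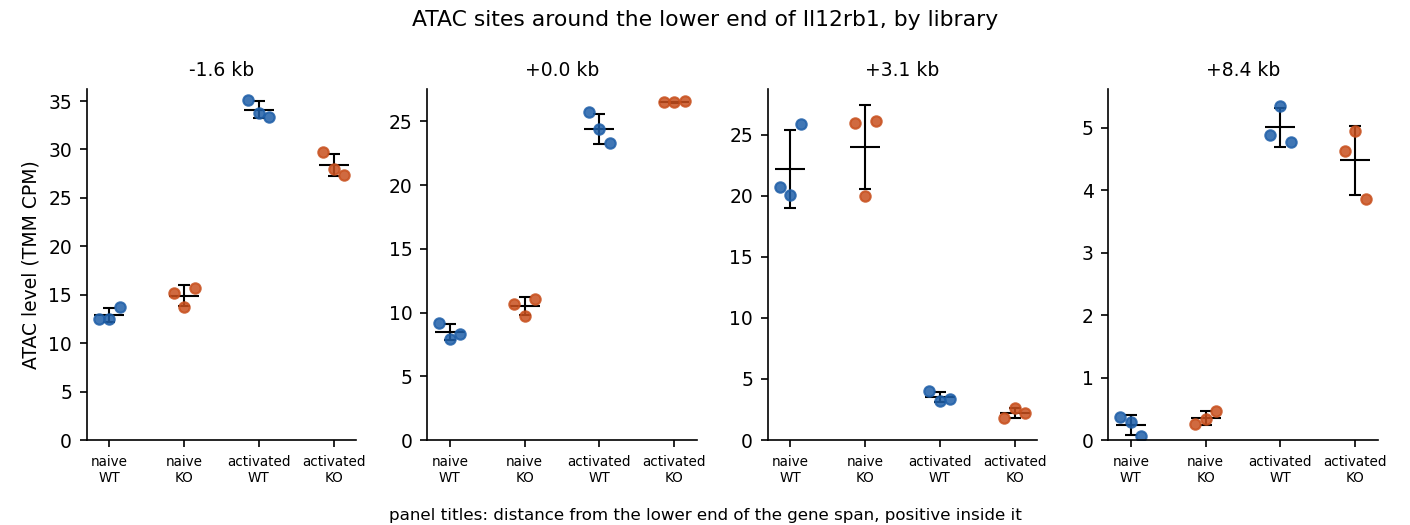
ATAC level, in TMM-scaled CPM on linear axes from 0, at 4 sites around the lower end of the Il12rb1 span in each library. Points are libraries, WT in blue and KO in orange, with the mean and SD of 3 libraries. The 3 sites at -1.6, 0.0 and 8.4 kb rise on activation in both genotypes, and the activated KO libraries lie below the activated WT libraries at -1.6 and 3.1 kb.

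The genes beside the receptors were compared for the same reason. Mast3, a kinase gene whose span enters the Il12rb1 window, had a difference of 0.02 ± 0.08 in activated cells (edgeR adjusted p = 0.911), and Arrdc2, an arrestin-domain gene on the other side, was 1.49-fold higher in KO (0.57 ± 0.13, edgeR adjusted p = 0.00501). The kinases had sites of their own within 10 kb. At Jak2 7 of 21 sites passed as lower and 3 as higher in activated KO, against 17.5% and 10.9% of all sites, with a median of -0.07, and the summed level was 202 ± 8.28 CPM in activated WT and 189 ± 4.48 CPM in activated KO. At Tyk2 1 of 8 sites passed, against 28.4% of all sites. It was chr9:21106186-21106586, 24.9 kb into the gene, which was 3.42-fold lower in activated KO (-1.77 ± 0.22, edgeR adjusted p = 2.37e-06), and the summed level was 138 CPM in both genotypes.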

How the data were processed

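RNA was measured in 18 libraries and open chromatin in 12. For RNA the authors deposited whole-number counts per gene symbol, in a table of naive and activated libraries and another of forskolin libraries. For ATAC the authors deposited counts per site and library, group means and a fold on the log2 scale without scaling to depth (WT minus KO, turned here), and a p-value and FDR. The build is mm10, per the labels, and the aligner, counter and peak caller are not given in the sources used here. Rows without a symbol (1314 of 27179, at most 0.159% of a library's counts) were left out.

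Counts were tested with edgeR 4.0.16 (limma 3.58.1, R 4.3.3; filterByExpr, TMM, robust quasi-likelihood fit), Benjamini-Hochberg adjusted over all features, with 0.05 as the threshold. Naive and activated libraries shared 1 fit per assay, and forskolin libraries had their own. All 4 members and all 26 sites passed the filter. Levels are TMM-scaled CPM. A count of 0 allows up to 3 counts, 0.251 to 0.391 CPM for RNA, for counting error only. The fits were tested on simulated counts. Alternatives were RLE, upper-quartile or total-count scaling, no filter, DESeq2 1.42.0, limma-voom, a replicate block, smaller fits and each library left out.

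The members, lists, motifs and tests were chosen with earlier results of these data known. Named are the members, their sites, at most 4 genes of each list by smallest p in activated cells, neighbouring genes and the genes most like each member. Ifng, Ebi3, Il12a, Il12b, Il23r, Jak3 and Tbx21 were named beside them, whatever their result. Some results for genes of these lists are not reported here. No library pair of a group agreed within sampling noise (lowest chi-square per degree of freedom 1.15). Libraries with the same replicate number deviated together, by the data and not by the labels, with every r above 0.1 in 2 comparisons. These were RNA of activated KO and WT cells (r = 0.56, 0.28 and 0.24) and of KO cells across activation (r = 0.36, 0.18 and 0.13). By best match, 2 of 6 libraries went with their own number in naive RNA, and 5 or 6 of 6 in each other comparison. The main tests used no pairing, and the replicate block did.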

Additional observations from a re-analysis of the deposited data

Results flagged for a closer look

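The values here are differences of a genotype difference between conditions. Each passed edgeR's quasi-likelihood test of that difference, except the change of Il12rb1 RNA with activation, given for comparison. From naive to activated cells the log2 genotype difference, KO over WT, moved by -3.38 for Il12rb2 RNA. That call was lost under 7 of 18 alternatives, and 3.70% of all genes passed. At the Il12rb2 sites the genotype difference moved by -1.37 at chr6:67367114-67367514, by -0.76 at the start site and by -0.74 at chr6:67339463-67339863, the last with an adjusted p of 0.0483. These calls were lost under 1, 2 and 12 of 17 alternatives, in that order. Over the genome 5.58% of sites passed. At Il12rb1 the genotype difference moved by -0.47 at chr8:70806560-70806960 and by -0.79 at chr8:70811274-70811674. These calls were lost under 2 and 7 of 17 alternatives. The RNA of Il12rb1 gave -0.81 with an adjusted p of 0.0502. After forskolin, in the joint fit of 18 libraries, the genotype difference of Il12rb1 was above that in activated cells by 2.65 and above that in naive cells by 1.84. That of Il12rb2 was above that in activated cells by 1.81, since it was less negative. In that fit more genes passed as higher than as lower, 1548 and 734 against activated cells and 894 and 482 against naive cells. Groups of 3 libraries are too small for a test of single outlying libraries.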

How the results depend on the processing

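The headline difference, Il12rb2 RNA in activated cells, stayed past the threshold under all 19 alternatives, from -4.04 to -3.53, as did its fall after forskolin, from -2.23 to -1.99 under 13. The activation changes of the 4 members kept their direction and call throughout. In naive cells 1 member was called with DESeq2 (Il12rb1, 0.78), and leaving out single libraries gave 0 to 1 members and 0.55 to 0.95 for Il12rb1. All genes called there numbered 29, or 59 with DESeq2.

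For the change of the genotype difference with activation, the number of members called was 1, and 2 with RLE scaling, DESeq2 or the replicate block, 0 with limma-voom, and 0 to 2 without single libraries. Il12rb1 joined at -0.82 with RLE scaling, no filter or DESeq2 and at -0.81 with the replicate block (adjusted p = 0.0121), and spanned -1.0 to -0.60 without single libraries. Il12rb2 was lost at -3.38 without the filter and at -3.25 with limma-voom, and spanned -3.70 to -3.03 without single libraries. Jak2 after forskolin was lost in the joint fit (0.16).

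For ATAC in naive cells, 1 site of Il12rb2, the one that starts at 67302253, was called with the replicate block (-0.53) and in a fit of the naive libraries alone (-0.59), and without single libraries 0 to 1 sites were called at either gene. In activated cells the authors' deposited FDR called 2 sites at Il12rb2 and 0 at Il12rb1. For the change with activation the replicate block called 5 sites at Il12rb2, and leaving out single libraries gave 1 to 3 there and 0 to 2 at Il12rb1. Total-count scaling turned 3 activation changes, at 70821535 (0.29) and 67348000 (0.07) in WT and at 67376047 (0.22) in KO. Beside these and the sites that start at 67373650 and 67378015, which joined (-2.04 and -1.95), the replicate block changed no call. The cause of these changes was not tested. RNA levels under about 1 CPM rest on few counts, which limits the naive values of Il12rb2 and the forskolin values of Il12rb1.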

Other observations

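Among 21 genes that restrain Janus kinase signalling, all tested, 6 passed as lower and 3 as higher in activated KO cells by edgeR's quasi-likelihood test, against 9.04% and 5.89% of all genes, with a median log2 fold change of -0.18 against 0.01 over all genes. Cblb, a ubiquitin ligase gene, was 3.97-fold lower (-1.99 ± 0.08, adjusted p = 1.44e-11), and Socs2, a suppressor of cytokine signalling, was 2.44-fold higher (1.28 ± 0.10, adjusted p = 4.77e-08). Ptpn22, a phosphatase gene of lymphocytes, was 1.79-fold lower (-0.84 ± 0.07, adjusted p = 1.13e-07). Cish, another suppressor, was 1.97-fold lower in activated KO (-0.98 ± 0.11, adjusted p = 1.89e-05) and 2.68-fold higher in KO after forskolin (1.42 ± 0.10, adjusted p = 2.82e-12). In the joint fit of 18 libraries the genotype difference of Cish after forskolin was above that in activated cells by 2.43 ± 0.18 (edgeR adjusted p = 7.31e-09).

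Of the 7 tested genes for single chains of receptors that use JAK2, 2 passed as lower and 2 as higher in activated KO. The shares over all genes were 9.04% and 5.89%. Their median was -0.04, against 0.01 over all genes. Csf2rb, the common chain of the receptors for IL-3, IL-5 and GM-CSF, was 5.57-fold higher (2.48 ± 0.45, edgeR adjusted p = 0.000939), and Prlr, the prolactin receptor, 3.43-fold higher (1.78 ± 0.42, edgeR adjusted p = 0.00726). Ifngr2 and Ifngr1, the chains of the interferon gamma receptor, were lower (-0.45 ± 0.10, edgeR adjusted p = 0.00374, and -0.77 ± 0.17, edgeR adjusted p = 0.00779). After forskolin Ifngr1 was 12.5-fold lower in KO (-3.65 ± 0.04, edgeR adjusted p = 6.97e-32). Of the 6 tested genes for single chains of receptors that use TYK2, 1 passed as lower and 1 as higher in activated KO, against the same shares of all genes. Their median was -0.25, against 0.01 over all genes. Ifnar1, a chain of the type I interferon receptor, was 2.25-fold lower in activated KO (-1.17 ± 0.08, edgeR adjusted p = 1.18e-08), and Il6ra, the IL-6 receptor, 1.70-fold higher (0.76 ± 0.08, edgeR adjusted p = 3.74e-06).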
